A study of Mus musculus with 9 samples.

Results

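The loci of Smad1 and Pou5f1 were examined in chromatin immunoprecipitation sequencing (ChIP-seq) of mouse epiblast-like cells that were being turned into cells resembling primordial germ cells. They were chosen by the read counts of the SMAD1 library made at 24 h, which rise there in narrow, very high blocks. The Smad1 interval ran from 81830000 to 81960000 on chromosome 8 and held 129 windows, and the Pou5f1 interval ran from 35620000 to 35670000 on chromosome 17 and held 49 windows (mm9 coordinates, as in the deposited tables). Together these were 178 of 2472353 autosomal windows. The values at 24 h that chose the loci are given as a description, without a test.

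The series holds 9 libraries, 6 immunoprecipitated and 3 of input chromatin, all labelled as C57BL/6 epiblast-like cells. SMAD1 was immunoprecipitated from the Blimp1-mVenus reporter line (BV) at 12, 24 and 36 h and from the Prdm14-mVenus reporter line (PV) at 36 h. TCF1, a transcription factor of the WNT pathway, was immunoprecipitated from BV and T (Brachyury), a T-box factor of the mesoderm, from PV, with no time in their titles. The inputs are titled PV, BVSC and BV, and the one titled BVSC carries the BV genotype label. Per the labels' protocols, the epiblast-like cells were floated in a medium with LIF, to which the cytokines BMP4 and WNT3A were added or not. Which library received them is not used here. Each group was 1 library, so no value below has a replicate check and no p-value is given. Intervals are exact 95% intervals that cover counting error only and treat reads as independent. Reads copied by PCR are not independent molecules, so where such copies are present the intervals are too narrow.

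Smad1 encodes SMAD1, the protein immunoprecipitated in 4 of these libraries. SMAD1 is phosphorylated by activated BMP receptors, joins SMAD4 and enters the nucleus, where it binds DNA near BMP target genes. Pou5f1 encodes OCT4, a POU-domain transcription factor that keeps embryonic stem cells pluripotent and is also made in primordial germ cells. In mouse RefSeq (GRCm38.p6) the protein-coding neighbours are Mmaa beside Smad1, and H2-Q10 and Tcf19 beside Pou5f1. Both genes are transcribed from several exons separated by introns. No exon positions of the mm9 build were used here, so whether a block lies on an exon or in an intron was not tested.

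The promoters of both genes are shown because SMAD1, TCF1 and T are the factors profiled. Each is the 250 bases before the RefSeq start (GRCm38.p6), 5′ to 3′ on the strand of the gene, chr8:79399429-79399678 on the minus strand and chr17:35505782-35506031 on the plus strand. Capitals mark matches to 3 short motifs on either strand.
Smad1: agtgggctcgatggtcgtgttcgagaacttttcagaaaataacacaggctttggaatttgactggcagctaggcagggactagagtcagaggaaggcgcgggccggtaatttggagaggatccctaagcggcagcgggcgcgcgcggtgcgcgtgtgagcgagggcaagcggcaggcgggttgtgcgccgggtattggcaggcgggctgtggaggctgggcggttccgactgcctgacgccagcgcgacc
Pou5f1: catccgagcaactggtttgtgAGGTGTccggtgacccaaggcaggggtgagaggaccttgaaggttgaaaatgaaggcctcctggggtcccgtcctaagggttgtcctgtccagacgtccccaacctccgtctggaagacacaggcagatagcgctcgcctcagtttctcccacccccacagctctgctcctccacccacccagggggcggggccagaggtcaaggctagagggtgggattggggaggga
The motifs were GGCGCC, a GC-rich SMAD element, CTTTGA, the core of TCF sites, and AGGTGT, the core of T-box sites. The Pou5f1 promoter held 1 match, to AGGTGT, and the Smad1 promoter held 0 matches to any of them. Among 32851 promoters of this length, GGCGCC was found in 9.59%, CTTTGA in 13.8% and AGGTGT in 11.8%. GC content was 63.6% in the Smad1 promoter and 62% in that of Pou5f1, against a median of 52.4% over all promoters. The promoters were not placed on the mm9 windows, since the builds differ.

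The values are numbers of reads per window, each window being 2 kb long and starting 1 kb after the one before. Because each read falls in 2 windows, the windows were split by subtraction into bins of 1 kb, which gave no bin below 0 on the autosomes in 8 libraries. In input BVSC 47.3% of bins came out below 0, so that library is given by windows only. Counts were scaled to a mean of 1 over the autosomes. Enrichment is the ratio of the scaled values of a library and of the input of its line, after 0.5 was added to each. A window or bin was called at an enrichment and a scaled value of at least 4. Ratios named as plain have nothing added. Depth ranged from 14925074 reads (SMAD1 of 36 h in BV) to 134657262 (input BV), with 23275288 in SMAD1 at 24 h.

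At 24 h the Smad1 interval held 6 separate blocks within 34 kb, 5 of them 1 kb wide and the last 2 kb wide. Widths are counted in whole bins of 1 kb, the smallest unit here. A narrower feature would also show as 1 bin, or as 2 bins where it crosses a bin edge. Called windows numbered 13 of 129 in the Smad1 interval and 5 of 49 in the Pou5f1 interval, where 0.00441% of all autosomal windows were called at 24 h. Called bins numbered 7 of 130 and 4 of 50, against 0.00449% of all autosomal bins. These shares describe the choice of the loci and are not read further. In the Smad1 interval the 7 called bins held 8970 reads at 24 h, against 440 in input BV, a plain ratio of 118 (107 to 130). The 4 called bins of the Pou5f1 interval held 1655 reads, against 235 in input BV, a plain ratio of 40.6 (35.4 to 46.8). Reads in these bins made up 0.0385% of the 24 h library at Smad1 and 0.00711% at Pou5f1.

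The Smad1 blocks differed from each other in height. Along the chromosome, the first block, in the bin from 81863001 to 81864001, held 697 reads at 24 h, against 67 in input BV. The second, from 81867001 to 81868001, held 2046 reads against 56 in input BV, and the third, from 81873001 to 81874001, held 1519 against 60. These were followed by a lower block and a higher one. Block 4, at 81877001, held 580 reads at 24 h against 71 in input BV, and block 5, at 81880001, held 1377 against 57. The last block crossed a bin edge, with 2235 reads at 24 h against 59 in input BV in the bin starting at 81895001 and 516 against 70 in the next. Enrichment in the called bins lay between 31.1 and 151, and the plain ratio of the highest bin was 218 (169 to 288). Of the reads above the input level, the last block held 30.7%, the second 22.9%, the third 16.96%, block 5 15.4%, the first 7.71% and block 4 6.38%. In order of enrichment among all autosomal bins at 24 h, the bins at 81895001, 81867001, 81873001 and 81880001 ranked 1 to 4.

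**Figure D1:**
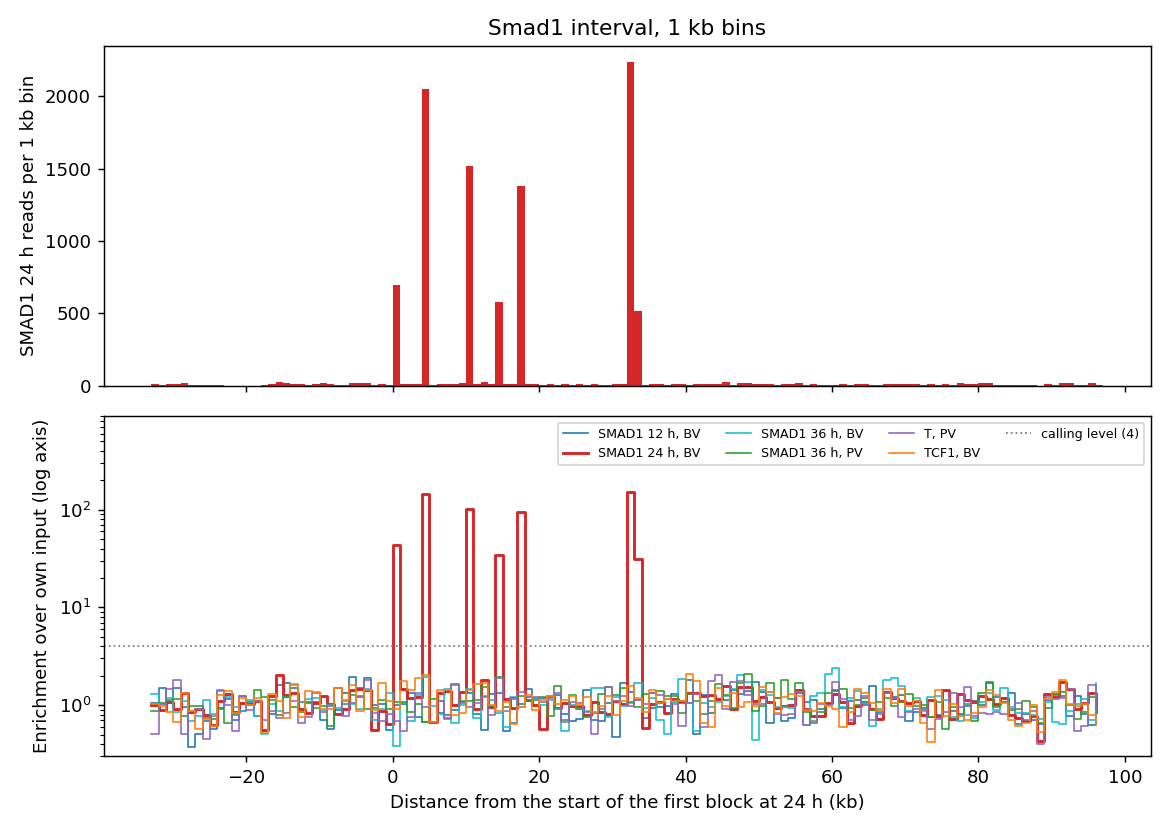
Reads of SMAD1 at 24 h per 1 kb bin (top) and enrichment of the 6 immunoprecipitated libraries over the input of their own line on a log axis (bottom), against distance in kb from the start of the first block. In the 24 h library 7 bins reach enrichments of 31.1 to 151, and all other bins and libraries stay below the calling level of 4 (dotted).

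Blocks at Smad1 were unevenly spaced, and the bins between them held reads at about the input level. The gaps were 3, 5, 3, 2 and 14 kb wide, so that the starts of successive blocks lay 4, 6, 4, 3 and 15 kb apart. In the 27 bins between the blocks SMAD1 at 24 h held 324 reads, against 1708 in input BV, a plain ratio of 1.09 (0.97 to 1.23). No bin between blocks reached an enrichment above 1.82. The widest gap, of 14 bins from 81881001 to 81895001, held 5 to 15 reads per bin at 24 h, with a plain ratio of 0.95 (0.79 to 1.13) for 147 reads against 894 in input BV. The gap of 2 bins between blocks 4 and 5 held 24 reads against 131 in input BV, a plain ratio of 1.06 (0.65 to 1.64). The fall from block to gap was complete within 1 bin. The 12 bins directly beside a block held 134 reads at 24 h, against 775 in input BV, a plain ratio of 1.00 (0.82 to 1.20). The bin at 81867001, with 2046 reads, had 13 reads in the bin before it and 5 in the bin after it. The 96 bins of the interval outside the span of the blocks gave a plain ratio of 1.08 (1.01 to 1.15).

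The Pou5f1 interval held 2 blocks within 5 kb. The first filled 1 bin, from 35643001 to 35644001, with 656 reads at 24 h against 75 in input BV (plain ratio 50.4, 39.7 to 64.9). The next bin, at 35644001, held 15 reads at 24 h against 72 in input BV, a plain ratio of 1.20 (0.64 to 2.12). Reads thus returned to near the input level for 1 bin inside the span. The second block, from 35645001 to 35648001, held 86, 586 and 327 reads in its bins, against 58, 68 and 34 in input BV. Its enrichments were 6.19, 36.1 and 31.6, and the bin after it held 13 reads. Of the reads above the input level, 39.8% lay in the first block and 60.2% in the second. With windows of 2 kb the blocks merged into 1 region of 7 kb, and at Smad1 blocks 4 and 5 merged, which left 5 regions.

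**Figure D2:**
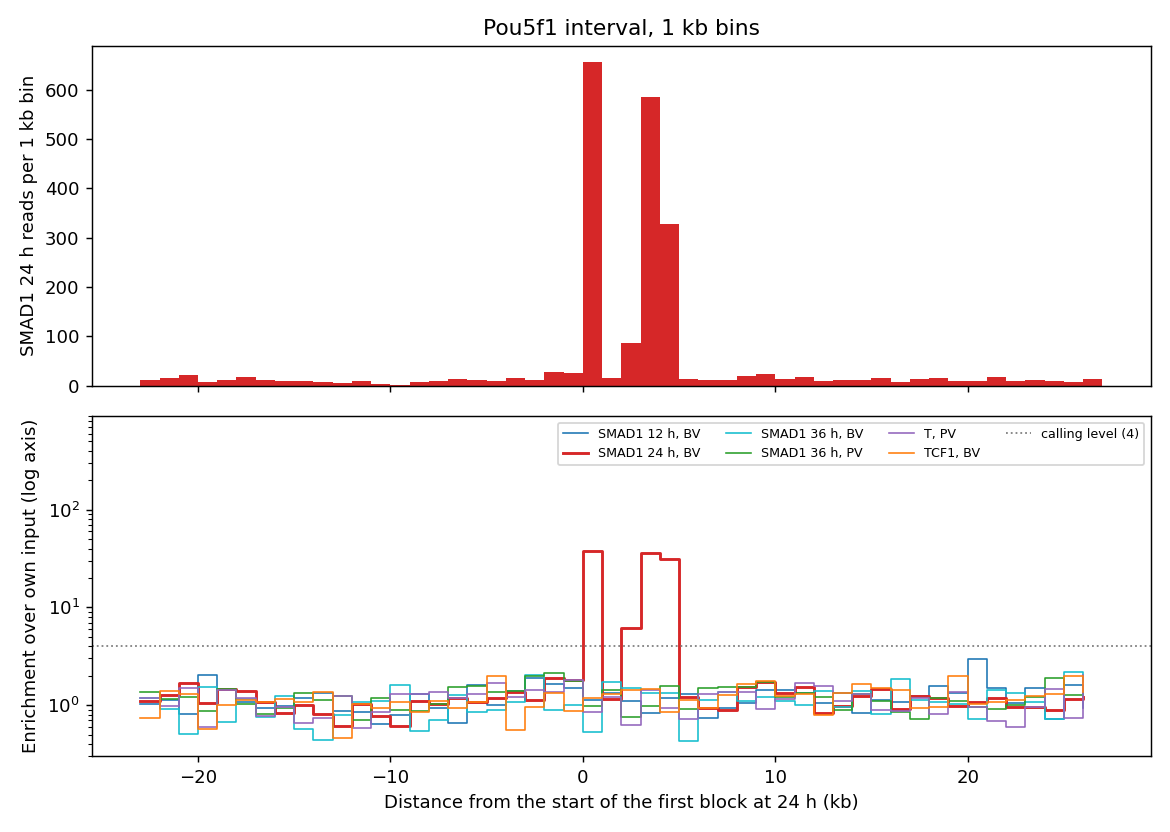
Reads of SMAD1 at 24 h per 1 kb bin (top) and enrichment of the 6 immunoprecipitated libraries on a log axis (bottom) over the Pou5f1 interval, against distance in kb from the start of the first block. The 24 h library has 1 bin of 656 reads, a bin of 15 reads, and then 86, 586 and 327 reads.

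Between called and other bins there was a wide empty range. The lowest called bin was that of 86 reads at Pou5f1, with an enrichment of 6.19. The highest bin below the calling level at 24 h had 1.91 in the Pou5f1 interval (35641001, 29 reads) and 2.02 in the Smad1 interval (81847001, 24 reads). Among windows the lowest called had 14.0 at Pou5f1 and 15.2 at Smad1, and the highest window not called had 3.47 at Pou5f1, where it shared the bin of 86 reads, and 1.61 at Smad1.

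In the bins from 81867001 and 81895001 the 24 h library held more reads than a 1 kb bin has start positions on both strands, which is 2000. If each read is counted at 1 position, at least 46 reads in the first of these bins and at least 235 in the second shared position and strand with another read. How far copies made by PCR add to these bins or to the others was not tested.

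The blocks were found at 24 h and in no other immunoprecipitated library. In the bin from 81895001 the counts were 12 in SMAD1 at 12 h, 2235 at 24 h, 7 in the BV library of 36 h and 30 in the PV library of 36 h, 13 in T and 22 in TCF1, against 27 in input PV and 59 in input BV. In the bin from 81867001 they were 4 in SMAD1 at 12 h, 2046 at 24 h, 15 in the BV library of 36 h and 21 in the PV library of 36 h, 16 in T and 29 in TCF1, against 35 in input PV and 56 in input BV. In the Pou5f1 bin from 35643001 they were 12 in SMAD1 at 12 h, 656 at 24 h, 3 in the BV library of 36 h and 28 in the PV library of 36 h, 11 in T and 19 in TCF1, against 28 in input PV and 75 in input BV. At each of these bins the count at 24 h exceeded that of the other 7 libraries, including both deeper inputs. Over all 7 Smad1 bins, SMAD1 held 70 reads at 12 h, 61 in the BV library of 36 h and 195 in the PV library of 36 h, T held 94 and TCF1 124. Plain ratios over the 7 Smad1 bins were 1.17 at 12 h (0.90 to 1.51), 1.25 in the BV library of 36 h (0.94 to 1.63), 1.08 in the PV library of 36 h (0.88 to 1.34) and 1.09 for T (0.84 to 1.41). All 4 of these intervals include 1.

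TCF1 stood slightly above its input at the Smad1 blocks, but also around them. Its plain ratio was 1.38 (1.12 to 1.69) over the block bins, 1.21 (1.09 to 1.35) over the bins between blocks and 1.08 (1.01 to 1.15) outside their span. Over the 4 Pou5f1 bins the ratios were 1.07 for SMAD1 at 12 h (0.72 to 1.54), 1.19 in the BV library of 36 h (0.79 to 1.73), 1.02 in the PV library of 36 h (0.74 to 1.40), 0.98 for T (0.65 to 1.47) and 1.38 for TCF1 (1.03 to 1.81). The rest of the Pou5f1 interval gave 1.26 for TCF1 (1.15 to 1.37). The highest enrichment of any of these 5 libraries in a block bin was 2.04 at Smad1 (TCF1, 29 reads at 81867001) and 1.56 at Pou5f1 (SMAD1 of 36 h in PV).

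**Figure D3:**
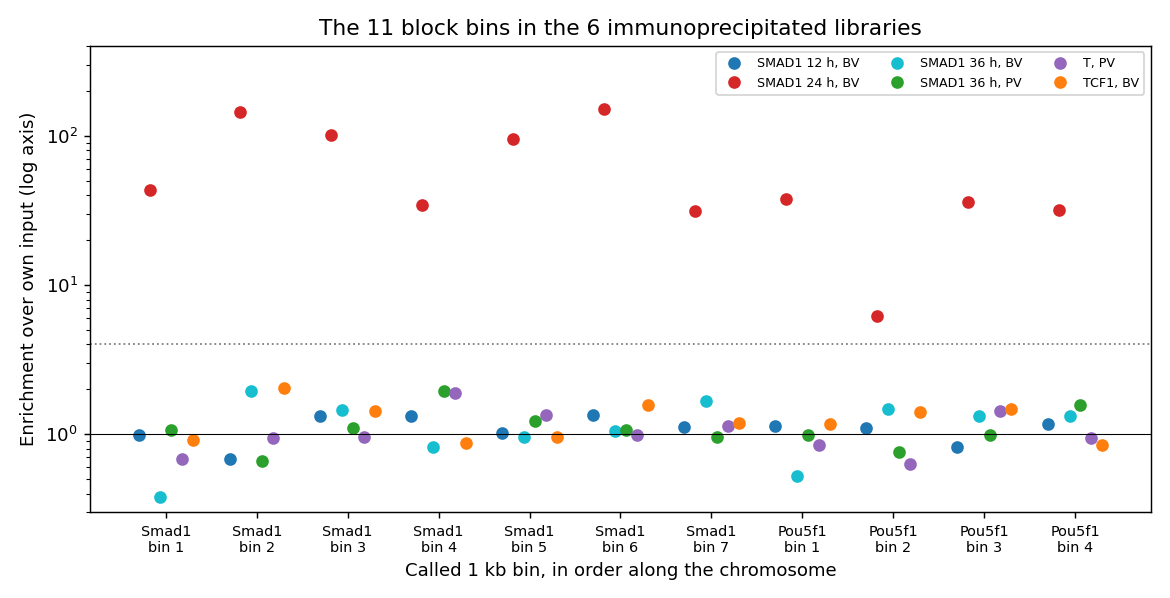
Enrichment over the own input (log axis) of the 11 called bins, 7 at Smad1 and 4 at Pou5f1, with 1 point per immunoprecipitated library; the dotted line is the calling level of 4 and the solid line is 1. The 24 h library lies between 6.19 and 151, and the other 5 libraries lie at or below 2.04.

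None of the 178 windows was called in the other 5 libraries, whose shares of called windows over the autosomes were 0.00955% for SMAD1 at 12 h, 0.000849% in the BV library of 36 h, 0.00518% in the PV library of 36 h, 0.0447% for T and 0.00271% for TCF1. At such shares 0 calls in these intervals says little about the loci. At an enrichment of at least 2, outside the blocks, 0 of 123 Smad1 bins qualified in SMAD1 at 12 h, 1 at 24 h, 3 in the BV library of 36 h, and 1 each in the PV library of 36 h, in T and in TCF1. In the Pou5f1 interval 2 of 46 bins qualified at 12 h, 0 at 24 h, 2 in the BV library of 36 h, and 1 each in the PV library of 36 h, in T and in TCF1. Over all autosomal bins the shares were 0.758% at 12 h, 0.253% at 24 h, 0.575% in the BV library of 36 h, 0.476% in the PV library of 36 h, 1.56% for T and 0.674% for TCF1.

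Neither locus stood far above the autosomal mean in any input. Outside the blocks the Smad1 interval stood at 1.22 times the autosomal mean in SMAD1 at 24 h, 1.35 in inputs PV and BVSC and 1.12 in input BV. Over the whole of chromosome 8 the levels were 0.99 in SMAD1 at 24 h, 1.13 in input PV, 1.16 in input BVSC and 0.97 in input BV. In the called windows of Smad1 the level was 75.7 in SMAD1 at 24 h, against 1.5 in input PV, 1.42 in input BVSC and 1.20 in input BV. In those of Pou5f1 it was 35.7 in SMAD1 at 24 h, against 1.21 in input PV, 1.17 in input BVSC and 1.16 in input BV. Outside its blocks the Pou5f1 interval stood at 1.33 in SMAD1 at 24 h, 1.22 in input PV, 1.08 in input BVSC and 1.09 in input BV. The inputs at the called windows were thus close to their level in the rest of the interval.

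In 5 of the 6 Smad1 blocks at 24 h the step in read count took place within 1 bin, and both neighbouring bins lay near the input level. Enrichments in these 10 neighbouring bins ran from 0.640 to 1.48, beside 34.6 to 143 in the highest bins. The last block reached 151, lies across a bin edge and had 31.1 in the bin after it. These shapes belong to the counts that chose the loci and are a description. As a scale, the 10 strongest called regions of SMAD1 at 12 h outside both loci were taken, where input BV lay between 0.25 and 3 times its mean. At 12 h their highest bins had enrichments of 15.0 to 31.1, and their neighbouring bins 1.84 to 13.2, and each region had at least 1 neighbour at 2-fold enrichment or more. In the 24 h library the same regions reached 6.24 to 12.6 in the highest bin and 1.21 to 5.49 in the neighbouring bins, and 3 of the 10 had no neighbour at 2-fold. At these 3 regions, as in 5 Smad1 blocks, the signal at 24 h was thus held by 1 bin at that cutoff. The higher neighbour had 0.175 to 0.258 of the enrichment of the highest bin at these 3 regions. In the 5 Smad1 blocks that ratio was 0.00837 to 0.0341. At the region on chromosome 11 from 96734001 the higher neighbour had 1.27 beside 7.27, within the range of the Smad1 neighbours. On chromosomes 2 and 13 it had 1.84 and 1.97. Of the reads above input in the 5 bins around the highest, the Smad1 blocks held a median of 98.7% in the highest bin (81.5 to 99.7). At the 12 h regions that share was 64.6% in the 24 h library (49.7 to 92.2) and 64.7% in the 12 h library (45.6 to 82.8). At Pou5f1 the shares were 85.6% for the first block and 58.8% for the second, which spans 3 bins. The 5 bins around the first block include the bin of 86 reads that belongs to the second, which lowers its share. The highest bins of the blocks, at 34.6 to 151, lay above the 15.0 to 31.1 of the 12 h regions in the 12 h library, by little for the lowest blocks. In the 24 h library itself those regions reached 6.24 to 12.6. Neighbouring enrichments ran from 0.640 to 1.48 in 5 Smad1 blocks. At the 12 h regions they were 1.21 to 5.49 in the 24 h library and 1.84 to 13.2 in the 12 h library. Shares and neighbour ratios also depend on height, since a fixed neighbour level takes a smaller part of a higher bin. Widths were not tested between them.

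**Figure D4:**
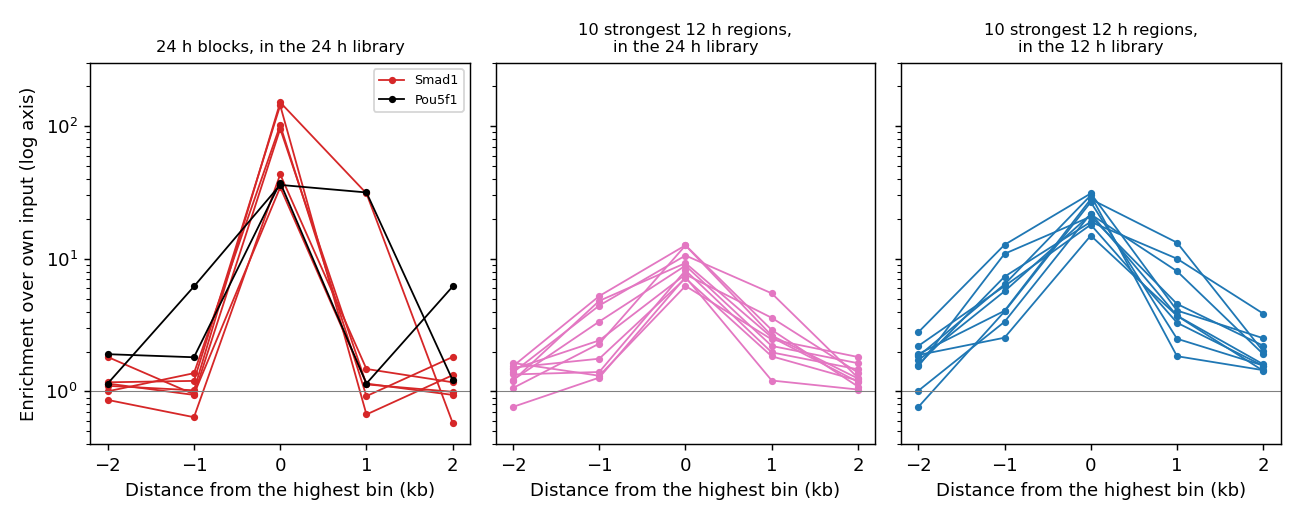
Enrichment over own input (log axis) in the 5 bins around the highest bin, against distance in kb, for the 8 blocks at 24 h (left, Smad1 red and Pou5f1 black), and for the 10 strongest 12 h regions in the 24 h library (middle) and in the 12 h library (right). Neighbouring bins lie at 0.640 to 1.48 in 5 of 6 Smad1 blocks, at 1.21 to 5.49 for the 12 h regions in the 24 h library and at 1.84 to 13.2 in the 12 h library, while the highest bins differ in height between the panels.

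Outside the blocks the level of the Pou5f1 interval lay somewhat above input in every immunoprecipitated library. Over all 46 bins outside the blocks, plain ratios were 1.33 for SMAD1 at 12 h (1.20 to 1.46), 1.23 at 24 h (1.13 to 1.35), 1.15 in the BV library of 36 h (1.02 to 1.28) and 1.31 in the PV library of 36 h (1.21 to 1.43). T measured 1.17 (1.047 to 1.298) and TCF1 1.26 (1.15 to 1.37). These bins include the stretch that comes next. The 3 bins from 35640001 to 35643001 had the highest mean enrichment of the other 5 libraries in that interval outside the blocks, and were chosen for it. In those 3 bins the ratios were 1.93 for SMAD1 at 12 h (1.39 to 2.63), 1.91 at 24 h (1.43 to 2.54), 1.36 in the BV library of 36 h (0.89 to 2.00) and 2.37 in the PV library of 36 h (1.74 to 3.27). T measured 1.77 (1.19 to 2.62) and TCF1 1.08 (0.76 to 1.51). Counting intervals of the stretch and the 46 bins overlap for SMAD1 at 12 h, the BV library of 36 h, T and TCF1. Those of the stretch lie above for SMAD1 at 24 h and the PV library of 36 h. The stretch is part of the 46 bins and was chosen for height in the other 5 libraries, so this is not a test. The counts were 52, 66, 30 and 143 for SMAD1 in the order 12, 24 and 36 h in BV, then PV, and 51 for T. The 24 h value in these bins is thus close to the 12 h value, unlike in the blocks beside them. Chosen in the same way, the 3 bins from 81909001 to 81912001 in the Smad1 interval had ratios of 1.53 at 12 h (1.06 to 2.17), 1.47 at 24 h (1.05 to 2.03), 2.06 in the BV library of 36 h (1.44 to 2.88) and 1.72 in the PV library of 36 h (1.27 to 2.36), with 1.83 for T (1.27 to 2.64) and 1.17 for TCF1 (0.83 to 1.63). All 123 bins outside the Smad1 blocks had ratios of 1.05, 1.08 and 1.08 for SMAD1 at 12, 24 and 36 h in BV, 1.09 in PV at 36 h, 0.99 for T and 1.11 for TCF1. Both stretches were chosen as the highest by the mean of 5 libraries, so that mean is larger than in a typical stretch. A single library can lie lower, as TCF1 did in the Pou5f1 stretch, with 1.08 against 1.26.

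Few places in the autosomes had the same pattern. Bins called at 24 h with every other immunoprecipitated library below 1.5 in log2 enrichment numbered 27 (0.00109% of autosomal bins), 11 of them in the Smad1 and Pou5f1 intervals. The other 16 lay on chromosomes 1, 2, 3 and 11, and the bins fell into 8 places when those within 100 kb were joined. Of the reads above input in all 27 bins, the 11 bins of Smad1 and Pou5f1 held 74.4% (10508 of 14133). These loci were chosen by their 24 h counts, so this share is a description. On chromosome 3, 9 bins between 130814001 and 130904001 held 2678 reads above input, and a single bin of chromosome 11 from 25774001 to 25775001 held 446. Another 3 bins of chromosome 11, between 52070001 and 52096001, held 332. The isolated bins on chromosomes 1 and 2 held 55 to 82 reads and were not called in windows of 2 kb.

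Regions were ranked by the difference in log2 enrichment between 24 h and the highest of the other 5 libraries in the same window. Smad1 and Pou5f1 were chosen by their 24 h counts, so their ranks are a description. Their 6 regions took ranks 1 to 6 of 13, with differences of 4.24 to 5.99. Next came chromosome 3 from 130891001 to 130899001 with 3.91, chromosome 3 from 130813001 to 130820001 with 3.80 and chromosome 11 from 25773001 to 25776001 with 3.66. Chromosome 3 from 130886001 to 130889001 had 3.36 and from 130902001 to 130905001 2.79. The shape of these regions varied. The region from 130891001, next in rank after the 2 loci, held 4 called bins, and its highest bin, from 130897001, had 391 reads, with 238 in the bin before it and 9 in the bin after it. The bin from 130814001 held 647 reads at 24 h, with 5 in the bin before it and 3 in the bin after it, and the bin from 25774001 held 458, with 7 and 10 beside it. On chromosome 11 the region from 52069001 had 30, 198 and 73 reads in successive bins. These regions are given by position, as no mm9 gene annotation was used.

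**Figure D5:**
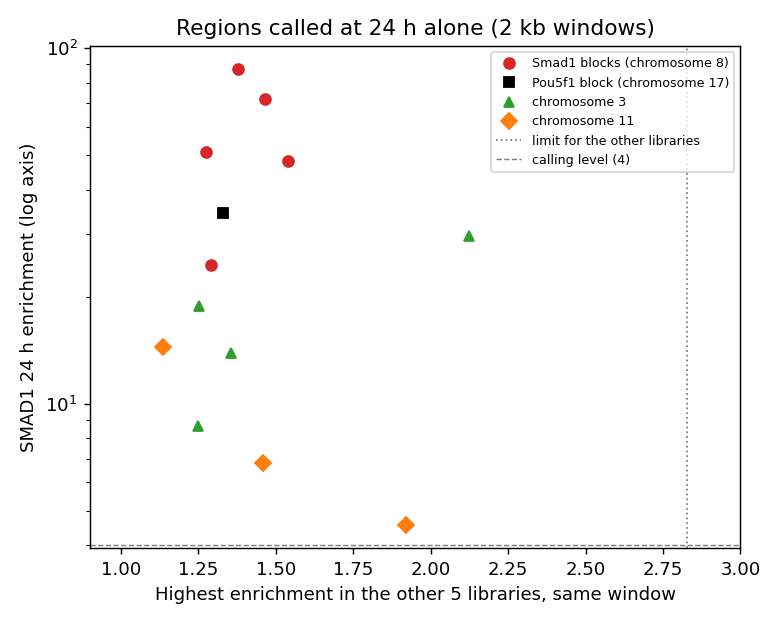
Enrichment of SMAD1 at 24 h (log axis) against the highest enrichment of the other 5 immunoprecipitated libraries in the same 2 kb window, for the 13 regions called at 24 h alone. The 5 Smad1 regions and the Pou5f1 region lie between 24.5 and 87.5 at 24 h, with the other libraries at or below 1.54.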

How the data were processed

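The authors deposited raw read counts per window (2 kb, overlapping by 1 kb), 1 file per library; the values are whole numbers and were not normalized. The submitters' processing notes name Bowtie 0.12.8 and mm9. Whether duplicate or multiply placed reads were removed, and how reads were counted, is not given in the sources. Such filters bear on the height of narrow blocks. At 24 h the bins from 81867001 and 81895001 held 2046 and 2235 reads, above their 2000 start positions on both strands. If each read was counted at 1 position, reads sharing position and strand were thus not all removed from that library.

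Windows were split into 1 kb bins by successive subtraction from the start of each chromosome. Counts were scaled, compared with the input of the same line and called as described above, with Python 3.11.15, numpy 2.4.6, pandas 2.3.3 and scipy 1.17.1. Adjoining called windows or bins were joined into blocks. Ratios have Clopper-Pearson 95% intervals on the split of 2 counts. Bin recovery and calling were tested on simulated counts with planted blocks lower than the highest blocks here and without reads copied by PCR. That run checked the code, not the blocks of these loci. Regions named beside the members were those with the same pattern, ranked as described. The genes of the BMP, pluripotency and WNT pathways were not analysed here, for want of mm9 positions. The members and lists were chosen with earlier results of these data known. Alternatives covered pseudocount, scaling, input and threshold.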

Additional observations from a re-analysis of the deposited data

How the results depend on the processing

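Of 73 values recomputed for 11 results under 7 alternative settings, 66 stayed within 1.5 times the count or within the interval, and 7 moved. The interval was that of counting, except for the median between blocks. There it came from the ranks of the windows, which overlap and are not independent. With a pseudocount of 1 the highest window enrichment at 24 h was 68.0 at Smad1 and 25.8 at Pou5f1, against 87.5 and 34.3 with 0.5. With the inputs of the lines exchanged, the highest Smad1 enrichment was 64.0 and the median of the windows between its blocks 0.778, against 0.974, and 337 autosomal windows were called at 24 h, against 109. The level of all of chromosome 8 was 1.13 in input PV, against 0.97 in input BV. With thresholds of 3 and 6, 178 and 56 autosomal windows were called. Called windows numbered 13 at Smad1 in 5 blocks under every setting, and 5 or 6 at Pou5f1 in 1 block. Regions called at 24 h alone numbered 13 to 19. Depth differed between libraries. The mean autosomal bin held 5.89 reads in SMAD1 of 36 h in BV, 7.17 in SMAD1 at 12 h and 8.18 in T. It held 9.18 in SMAD1 at 24 h, 10.8 in TCF1 and 17.1 in SMAD1 of 36 h in PV. Ratios of single bins have the widest intervals in the shallowest libraries. No paired analysis was possible because each group is 1 library.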

Other observations

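In the Pou5f1 interval a single bin from 35663001 to 35664001 had the highest enrichment outside the blocks at 12 h, 2.97 (26 reads against 47 in input BV, plain ratio 4.09, 95% interval 2.43 to 6.73). It was chosen after its value was seen. The same bin measured 1.07 at 24 h, 0.73 in the BV library of 36 h, 0.96 in the PV library of 36 h, 0.96 in T and 1.03 in TCF1. In the Smad1 interval the highest bin outside the blocks in any library was 2.42 in SMAD1 of 36 h in BV, from 81923001 to 81924001, with 12 reads against 29 in input BV.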
